A study of Mus musculus with 20 samples.

Results

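Cd36 and 9 further genes of fatty acid uptake were followed through the livers of 20 mice. The 10 genes were taken by symbol from a table of 46095 gene symbols: Cd36, the fatty acid binding proteins Fabp1, Fabp2, Fabp4 and Fabp5, the fatty acid transport proteins Slc27a2, Slc27a4 and Slc27a5, and Lpl and Vldlr. The mice were wild type (WT) or carried a liver-specific knockout of Pck1 (Pck1-cKO, here KO), the gene of the cytosolic phosphoenolpyruvate carboxykinase of gluconeogenesis. Each genotype was fed either chow or a NASH diet, one meant to bring on non-alcoholic steatohepatitis, for 24 weeks, and the animals were 31 to 33 weeks old. There were 5 mice in each of the 4 groups, called WT chow, WT NASH, KO chow and KO NASH, and the question was what loss of Pck1 does to the liver transcriptome on either diet. The labels name neither the Cre line behind the knockout, nor the deleted exons, nor the makeup of the NASH diet, nor the sex of the mice.

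Fatty acids reach a hepatocyte as free acids bound to albumin or inside the triglyceride of lipoproteins. CD36 is a membrane receptor that binds long-chain fatty acids and modified lipoproteins, and it is normally scarce in hepatocytes. The proteins of the Slc27a family join uptake to activation with coenzyme A, and the Fabp proteins carry the acids through the cytosol. Lipoprotein lipase (Lpl) frees fatty acids from circulating triglyceride, and the very low density lipoprotein receptor (Vldlr) binds the particles; both are low in the healthy adult liver and high in muscle and fat.

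Levels are given in CPM, counts relative to the library total after TMM scaling, as mean ± SD over 5 libraries. Differences are log2 fold changes with their standard errors (SE) from a single edgeR model of the 4 groups, tested by quasi-likelihood. A gene is called where its p, adjusted by Benjamini-Hochberg over 14440 genes, is under 0.05. All 10 genes passed the filter on low counts.

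The libraries held 9958935 to 20601955 counts. Pck1 was at 1701 to 4641 CPM in the 10 WT libraries and at 300.4 to 861 CPM in the 10 KO libraries, without overlap (log2 fold change -2.51 on chow, SE 0.291, edgeR adjusted p = 0.00011, and -2.36 on the NASH diet, SE 0.289, edgeR adjusted p = 6.13e-05). Sex, read from 4 Y-linked genes, was unbalanced: all 5 WT chow mice were male, while the other groups held 4 females (WT NASH, all but replicate 4), 2 females (KO chow replicates 3 and 5) and 1 female (KO NASH replicate 2). In 6 libraries (KO chow 4 and 5, WT chow 3, 4 and 5, and WT NASH 4, by replicate number), long genes were under-represented relative to short ones, with a slope of log2 CPM on log2 exonic length of -0.33 to -0.24, against 0.00 to 0.19 elsewhere. KO NASH replicates 1 and 5 were the most alike of any pair within a group, yet differed by more than counting noise (median chi-square 1.51, against 0.455 for noise alone), and were kept apart. Hepatocyte markers were high in every library, from 46282 to 118718 CPM summed over 6 genes, while 5 markers of intestinal epithelium, the main site of Fabp2, summed to at most 1.77 CPM. In whole liver, a change in the number of cells of a type and a change in RNA per cell cannot be told apart.

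The bases before the start sites of 4 of the genes are shown, because 3 of them (Cd36, Slc27a4 and Vldlr) were called higher in KO liver on chow and the fourth, Fabp1, was not. Sequences are from RefSeq promoters on GRCm38.p6, which held 6 of the 10 genes (Cd36, Fabp1, Fabp2, Slc27a2, Slc27a4 and Vldlr, but not Fabp4, Fabp5, Slc27a5 or Lpl), and run 5′ to 3′ on the strand of the gene up to the base before the start. Cd36 is shown at chr5:17835897-17836146 (minus strand), Slc27a4 at chr2:29802384-29802633 (plus) and the first of 2 Vldlr promoters at chr19:27216234-27216483 (plus). Fabp1 is shown at chr6:71199629-71199826 (plus). Its stretch stops short of the RefSeq start, just before the first base that GENCODE M21 gives to a Fabp1 exon. The Cd36 window lies in an intron of the longer GENCODE gene, which spans chr5:17781690-17888801. Capitals mark AGGTCA on either strand, the hexamer that nuclear receptors such as the PPARs recognise, and AGGNCANAGGNCA on either strand. The latter is a direct repeat, spaced by 1 base, of the looser hexamer AGGNCA, where N is any base.
Cd36: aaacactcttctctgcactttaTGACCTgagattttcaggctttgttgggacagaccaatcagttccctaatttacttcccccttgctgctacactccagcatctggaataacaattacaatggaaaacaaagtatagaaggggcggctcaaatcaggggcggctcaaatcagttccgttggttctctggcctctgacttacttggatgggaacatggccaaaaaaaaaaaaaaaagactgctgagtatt
Slc27a4: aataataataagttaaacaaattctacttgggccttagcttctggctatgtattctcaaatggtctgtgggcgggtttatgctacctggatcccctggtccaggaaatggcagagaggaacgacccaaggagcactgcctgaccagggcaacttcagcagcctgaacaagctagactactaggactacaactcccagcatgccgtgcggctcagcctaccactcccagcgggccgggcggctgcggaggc
Vldlr: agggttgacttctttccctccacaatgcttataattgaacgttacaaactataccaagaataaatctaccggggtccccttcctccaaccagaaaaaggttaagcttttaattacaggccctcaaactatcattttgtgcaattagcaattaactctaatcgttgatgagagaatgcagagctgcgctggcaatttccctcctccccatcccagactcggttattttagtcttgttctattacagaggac
Fabp1: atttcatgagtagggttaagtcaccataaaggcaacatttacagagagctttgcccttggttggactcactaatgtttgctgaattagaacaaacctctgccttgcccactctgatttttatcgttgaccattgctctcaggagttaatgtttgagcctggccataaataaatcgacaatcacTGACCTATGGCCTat

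From 250 bases before to 50 bases after the RefSeq start, AGGTCA was found once in Cd36, 228 bases upstream, and once in Slc27a2, 220 bases upstream. In Fabp1 it was found at 2 places, 67 and 9 bases upstream of the RefSeq start. The Fabp1 site 9 bases upstream lies past the printed stretch, in bases that GENCODE M21 gives to an exon. AGGTCA was absent from these windows of Fabp2, Slc27a4 and both Vldlr promoters. Of 32851 RefSeq promoters, 16.3% held it. Only Fabp1 of the 6 genes held the direct repeat, at the place of its hexamer 67 bases upstream, and 0.381% of all promoters did. The sites were not measured here, so a match is a description of the letters alone. GC content upstream of the start was 43.2% in Cd36, 42.8% in Fabp1, 35.6% in Fabp2, 64% in Slc27a2 and 54.4% in Slc27a4. It was 41.6% in the first Vldlr promoter and 66.4% in the second (median of all promoters 52.4%).

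Levels per kilobase of exon set the order of the 10 genes in WT liver. In WT chow, Fabp1, an abundant cytosolic protein of hepatocytes, stood at 8962 ± 5864 CPM per kb, followed by Slc27a2 (666 ± 115), Slc27a5 (515 ± 137), Fabp2 (218 ± 95.3) and Cd36 (42.0 ± 29.2). Fabp5 (7.17 ± 6.08), Fabp4 (6.66 ± 2.87), Slc27a4 (4.99 ± 1.20) and Lpl (3.25 ± 1.38) came next in CPM per kb and overlapped within their SDs, as did Slc27a2 and Slc27a5, and Vldlr was last at 0.0938 ± 0.0407. In KO chow, Cd36 stood at 385 ± 253 CPM per kb, beside 406 ± 95.8 for Slc27a5 and 207 ± 68.9 for Fabp2, so that the receptor was within the spread of the hepatic transporters there. Over the 10 genes, Fabp1 made up 25.8% to 69.1% of the summed CPM in WT chow and 20.2% to 45.7% in KO NASH.

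**Figure D1:**
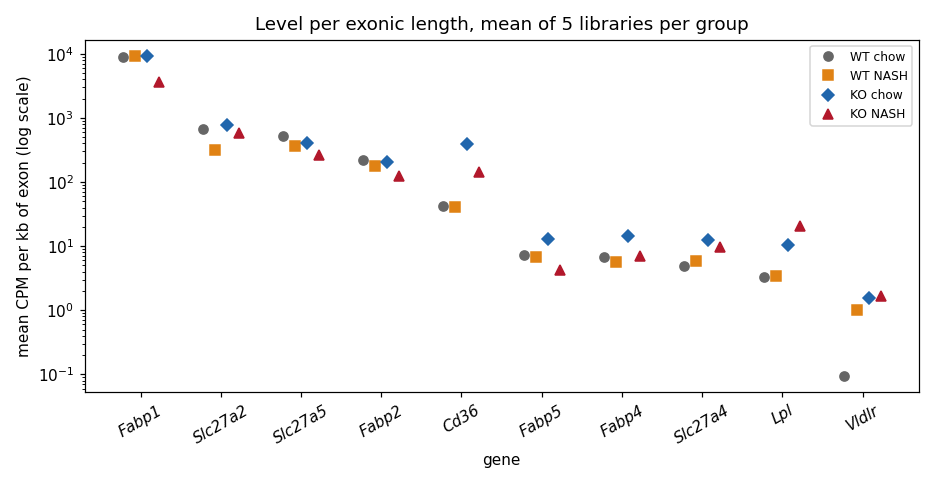
Mean CPM per kilobase of exon (log axis) of the 10 genes in the 4 groups, each point the mean of 5 libraries, genes ordered by their level in WT chow. Cd36 goes from 42.0 CPM per kb in WT chow to 385 in KO chow and 144 in KO NASH, and Vldlr stands at 0.0938 in WT chow and between 1.02 and 1.65 in the other groups.

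Cd36 was higher in KO than in WT liver on both diets. WT chow libraries held 53.1, 71.1, 124, 309 and 197 CPM (replicates 1 to 5), and KO chow libraries 898, 813, 781, 1501 and 2924 CPM. On the NASH diet, WT libraries held 108, 216, 196, 74.7 and 147 CPM and KO libraries 532, 447, 613, 538 and 453 CPM. Every KO library was above every WT library, and KO chow did not overlap KO NASH. The difference on chow was 9.17-fold (log2 fold change 3.20 with SE 0.475, edgeR adjusted p = 0.000811) and on the NASH diet 3.48-fold (log2 fold change 1.80 with SE 0.450, edgeR adjusted p = 0.017).

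The call held in males alone on chow (log2 fold change 2.84, edgeR adjusted p = 0.00371) and with sex as a term on both diets (2.90 and 2.26, edgeR adjusted p = 0.0017 and 0.0208). Without both KO NASH replicates 1 and 5, a setting added after seeing the data, the difference on the NASH diet was 1.86 with an edgeR adjusted p of 0.07. In WT liver the Cd36 mean on the NASH diet was 148 ± 58.9 CPM beside 151 ± 105 CPM on chow, with overlapping groups and no call. Endothelial cells of liver also carry Cd36. Of 6 endothelial markers, 2 were higher in KO NASH than in WT NASH. Lyve1 was at 40.4 ± 17.7 and 13.2 ± 5.07 CPM (log2 fold change 1.62, edgeR adjusted p = 0.00866), and Kdr at 54.2 ± 7.29 and 34.3 ± 8.25 CPM (0.66, edgeR adjusted p = 0.0323). With sex in the model, edgeR called 0 of the 6 there (2 at an unadjusted p under 0.05). Of the 6, 0 were called by edgeR in KO chow against WT chow (0 at an unadjusted p under 0.05). The 6 summed to 201 to 318 CPM in WT chow, 242 to 300.4 CPM in KO chow, 162 to 248 CPM in WT NASH and 202 to 324 CPM in KO NASH. Their part in the Cd36 level was not tested, nor was that of macrophages, whose markers are given below with Fabp4 and Lpl.

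Within KO liver, Cd36 was 517 ± 68.8 CPM on the NASH diet and 1383 ± 910 CPM on chow (log2 fold change -1.42 with SE 0.445, edgeR adjusted p = 0.0807), which was not called. DESeq2 called it (-1.45, DESeq2 adjusted p = 0.0202). KO chow replicates 4 and 5, the highest for Cd36 in their group, were also the pair with few long genes, as were the 3 highest WT chow libraries, and with sex and the length slope as terms the difference was -0.72 (edgeR adjusted p = 0.209). KO chow replicates 1 to 3, with no such slope, held 781 to 898 CPM, and KO NASH libraries 447 to 613 CPM. The genotype difference was smaller on the NASH diet by 1.40 on the log2 scale (interaction -1.40, SE 0.621), with an unadjusted p of 0.0358 and an edgeR adjusted p of 0.545. It was -0.64 with sex as a term, -0.87 with sex and the length slope as terms, and 0.03 in males alone (edgeR adjusted p = 0.995), where WT NASH is 1 library.

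**Figure D2:**
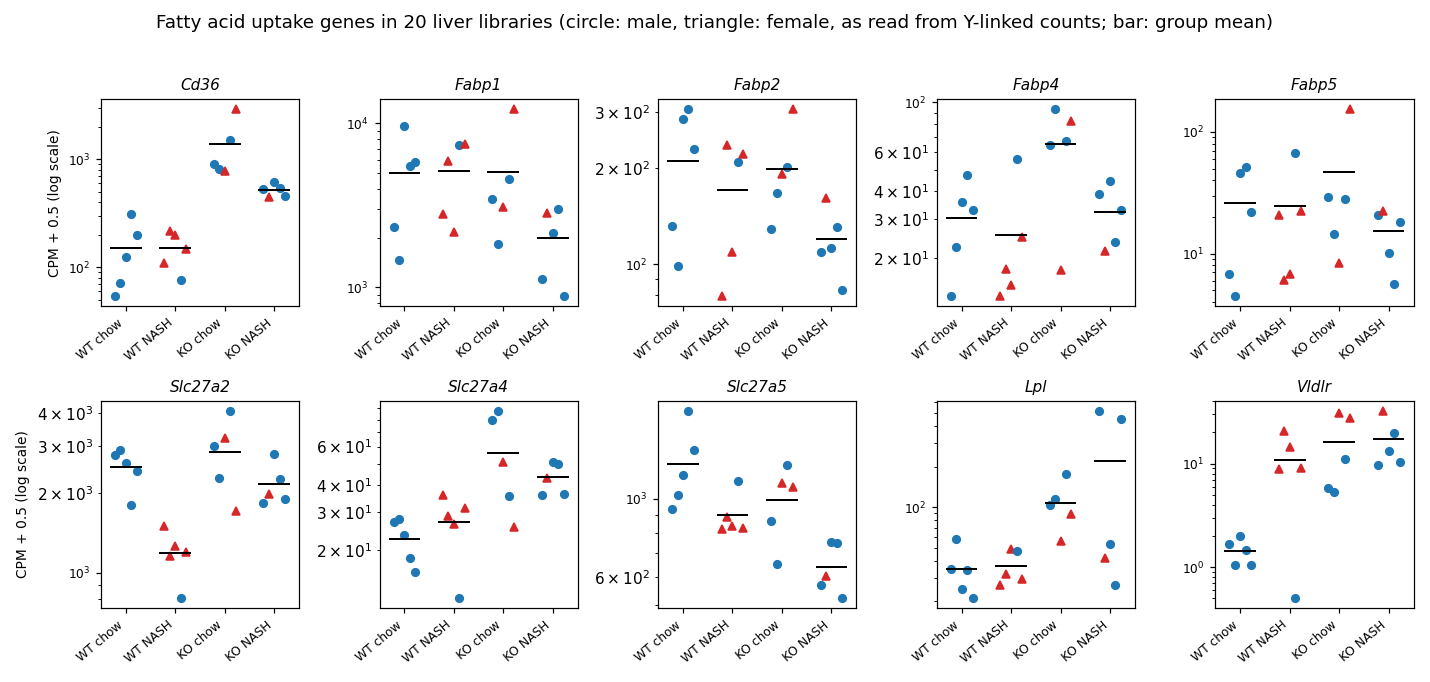
CPM plus 0.5 (log axis, a separate range for each gene) of the 10 genes in each of the 20 libraries, by group, with circles for males, triangles for females and a bar at the mean of 5 libraries. Cd36 separates KO from WT libraries on both diets, Lpl is at 519 and 449 CPM in 2 of 5 KO NASH libraries, and Vldlr is at most 1.49 CPM in every WT male.

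The fatty acid binding proteins showed no such split by genotype. Fabp1 was at 2337, 1461, 9636, 5491 and 5854 CPM in WT chow and at 3455, 1845, 3106, 4615 and 12282 CPM in KO chow, with means of 4956 ± 3243 and 5061 ± 4156. WT NASH libraries held 2792, 5936, 2171, 7374 and 7504 CPM and KO NASH libraries 1133, 2829, 2142, 3027 and 883 CPM. The KO NASH libraries lay low, but the groups overlapped, and the difference of -1.36 on the log2 scale (SE 0.551) was not called (edgeR adjusted p = 0.121). It was called by limma voom (-1.29, limma adjusted p = 0.0243), and with sex and the length slope as terms it was -0.53. The 3 highest WT chow libraries, the highest KO chow library and WT NASH replicate 4 were among the 6 libraries with few long genes, and Fabp1, with 553 exonic bases, is the shortest of the 10 genes.

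Fabp2, the intestinal form, which liver also expresses, had group means of 210.3 ± 91.9 and 199 ± 66.5 CPM on chow (WT and KO) and 171 ± 71.8 and 119 ± 29.1 CPM on the NASH diet. It was called in no comparison.

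Fabp4, the form of adipocytes and macrophages, was at 13, 21.9, 35.4, 46.6 and 32.4 CPM in WT chow and 64.2, 93.1, 17.2, 66.4 and 82 CPM in KO chow. Of the KO chow libraries, 4 exceeded every WT chow library, and the female replicate 3 fell inside the WT range. The difference of 1.11 (SE 0.431) was not called (edgeR adjusted p = 0.145). With sex as a term it was 1.48 and was called (SE 0.396, edgeR adjusted p = 0.0323), as it was in males alone (1.34, edgeR adjusted p = 0.0301) and without KO chow replicate 3 (1.36, edgeR adjusted p = 0.0449).

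On the NASH diet Fabp4 was 25.0 ± 17.5 CPM in WT and 31.8 ± 9.67 CPM in KO, and WT NASH replicate 4, the male of that group, held 55.5 CPM against 13.1 to 24.4 in the 4 females. The sex term gave -0.95 for females (SE 0.329), which was not called (edgeR adjusted p = 0.314). It was called with sex and the length slope as terms (-1.04, edgeR adjusted p = 0.0369) and without KO chow replicate 5 (-1.41, edgeR adjusted p = 0.0291). Other adipocyte genes were all but absent: Lep was at 0 counts in all 20 libraries, and Adipoq, Retn and Plin1 reached at most 0.545, 0.31 and 0.441 CPM. The fifth adipocyte marker, Cfd, reached 5.08 CPM in KO chow and 54.4 CPM in KO NASH, against at most 1.11 CPM in WT, and the 5 markers summed to 3.59 to 54.5 CPM in KO NASH. Macrophage markers, 8 in number, summed to 282 to 1271 CPM in WT chow and 428 to 1908 CPM in KO chow, and of these only Cd68 was called between the 2 groups (7.26 ± 4.32 and 14.9 ± 3.64 CPM, log2 fold change 1.03, edgeR adjusted p = 0.036). The part of macrophages in the Fabp4 level was not tested.

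Fabp5, the epidermal form, varied more within groups than between them, from 3.95 to 50.6 CPM (WT) and 7.92 to 154 CPM (KO) on chow and from 5.52 to 66.6 CPM (WT) and 5.08 to 21.8 CPM (KO) on the NASH diet, and it was called in no comparison. Fabp5 has near-identical pseudogenes in the mouse genome, so its counts are uncertain.

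Among the transport proteins, Slc27a2 (FATP2), which activates very long-chain fatty acids and is abundant in liver, differed by diet in WT mice. WT chow libraries held 2771, 2907, 2596, 1796 and 2427 CPM and WT NASH libraries 1499, 1153, 1259.8, 802 and 1195 CPM. The groups did not overlap, and the level was 2.12-fold lower on the NASH diet (log2 fold change -1.08 with SE 0.244, edgeR adjusted p = 0.0125). Adding sex to the model gave -1.07 (edgeR adjusted p = 0.138). Males alone gave -1.67 (edgeR adjusted p = 0.164). All WT females were on the NASH diet, and all WT males but 1 were on chow.

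KO NASH libraries held 1825, 1984, 2808, 2263 and 1893 CPM of Slc27a2, all above WT NASH (log2 fold change 0.87 with SE 0.243, edgeR adjusted p = 0.0297), and KO chow libraries held 2997, 2274, 3229, 4081 and 1716 CPM. With sex as a term the genotype difference on the NASH diet was 0.86 (edgeR adjusted p = 0.102). Leaving out any of 6 libraries (replicates 2, 4 and 5 of WT NASH and 3, 4 and 5 of KO NASH) gave 0.75 to 0.92 with edgeR adjusted p-values of 0.05 to 0.084, short of the call in each case.

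Slc27a4 (FATP4), a long-chain acyl-CoA synthetase of the endoplasmic reticulum, was at 26.5, 27.4, 22.9, 17.9 and 15.4 CPM in WT chow and 79.5, 87.4, 50.7, 34.9 and 24.9 CPM in KO chow. KO chow lay higher, with only replicate 5 inside the WT range (log2 fold change 1.33 with SE 0.315, edgeR adjusted p = 0.0183). In both groups the lowest 2 libraries were replicates 4 and 5, which had few long genes, and with the length slope as a term the difference was 0.98 (SE 0.199, edgeR adjusted p = 0.00389). The call was lost without KO chow replicate 1 (1.17, edgeR adjusted p = 0.0613) or replicate 2 (1.11, edgeR adjusted p = 0.0651), and with only those 2 groups in the model (1.35, edgeR adjusted p = 0.0606). On the NASH diet Slc27a4 was 26.3 ± 9.06 CPM in WT and 42.8 ± 7.18 CPM in KO, with a difference of 0.70 that was not called (SE 0.311, edgeR adjusted p = 0.163). It was called by limma voom (0.57, limma adjusted p = 0.0331) and in males alone (1.93, edgeR adjusted p = 0.0324), where WT NASH is 1 library.

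Slc27a5 (FATP5), the bile acyl-CoA synthetase of hepatocytes, had its lowest mean in KO NASH. Group means were 1255 ± 334 (WT) and 990.0 ± 234 CPM (KO) on chow and 899 ± 128 (WT) and 640 ± 106 CPM (KO) on the NASH diet. WT NASH libraries held 822, 887, 835, 1123 and 827 CPM and KO NASH libraries 569.9, 603, 752, 751 and 522 CPM, without overlap. The difference of -0.49 (SE 0.220) was not called by edgeR (adjusted p = 0.163) but was by limma voom (-0.42, limma adjusted p = 0.0479). By limma voom Slc27a5 was also called lower in WT NASH than in WT chow (-0.56, limma adjusted p = 0.0187). So was KO chow against WT chow (-0.56, limma adjusted p = 0.0317), which edgeR did not call (-0.34, edgeR adjusted p = 0.418). Not called by edgeR was the difference between KO NASH and KO chow (-0.63, SE 0.220, edgeR adjusted p = 0.108), which DESeq2 did call (-0.65, DESeq2 adjusted p = 0.0305).

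Lpl was high in some KO livers only. WT chow libraries held 34.4, 57.6, 24.1, 33.6 and 20.6 CPM and KO chow libraries 104, 114, 55.7, 174 and 88.3 CPM, of which only the female replicate 3 was inside the WT range. The difference of 1.65 (SE 0.630) was not called (edgeR adjusted p = 0.139), but it was with only those 2 groups in the model (1.70, edgeR adjusted p = 0.0291) and with KO NASH replicates 1 and 5 left out of it (1.66, edgeR adjusted p = 0.00682).

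On the NASH diet, WT libraries held 26, 31.3, 48.1, 46.9 and 29 CPM of Lpl and KO libraries 519, 41.5, 52.8, 26.2 and 449 CPM. KO NASH replicates 1 and 5, the pair that resembled each other most, carried the group mean of 218 ± 245 CPM, and the other 3 lay at WT levels. The difference was called (log2 fold change 2.59 with SE 0.651, edgeR adjusted p = 0.0176). It was lost without replicate 1 (1.99, edgeR adjusted p = 0.0618), without replicate 5 (2.15, edgeR adjusted p = 0.0561), with the replicate number as a block (2.23, edgeR adjusted p = 0.0653). The call was also lost with sex in the model (1.71, edgeR adjusted p = 0.195), in males alone (2.51, edgeR adjusted p = 0.214) and with only the 2 groups in the model (2.57, edgeR adjusted p = 0.0503). Without both replicates it was 0.16 (edgeR adjusted p = 0.868), and the difference between KO NASH and KO chow went from 1.02 to -1.42. The 8 macrophage markers summed to 322 to 468 CPM over all 5 KO NASH libraries, against 393 to 1224 CPM in WT NASH, and Gpnmb, a gene of lipid-laden macrophages, was at 3.80 to 16.2 CPM in KO NASH and 0.129 to 2.06 CPM in WT NASH (log2 fold change 4.25, edgeR adjusted p = 0.00177). WT NASH libraries had 2 to 14 counts of Gpnmb each, which limits the precision of this fold. Of the 8 markers only Gpnmb was called there, and their median log2 fold change was -0.49. Means of Adgre1, Clec4f, Vsig4, Cd5l and Lyz2 were lower in KO NASH than in WT NASH, and those of Cd68 and Trem2 higher. The part of macrophages in the Lpl level was not tested.

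Vldlr followed both genotype and sex. WT chow libraries, all male, held 1.18, 0.542, 1.49, 0.95 and 0.554 CPM, and the WT NASH male held 0 counts, where 3 counts would have been 0.441 CPM. The 4 WT NASH females held 8.39, 20.3, 13.9 and 8.52 CPM. In KO liver the males held 5.33, 4.87 and 10.6 CPM on chow and 9.25, 12.8, 19.3 and 9.75 CPM on the NASH diet, and the females 30.3 and 26.8 CPM on chow and 32 CPM on the NASH diet. Females were above males in either genotype without overlap, and KO animals were above WT animals in either sex without overlap. Both statements pool the diets. In WT, all females were on the NASH diet and all males but 1 were on chow, so sex and diet are hard to tell apart there. The WT NASH male was also a library with few long genes, and Vldlr has 10068 exonic bases. With sex as a term, females exceeded males by 2.31 on the log2 scale (SE 0.481, edgeR adjusted p = 0.0154), and Vldlr alone of the 10 genes was called for sex, against 1.02% of all genes. The sex call was lost without KO chow replicate 3 (2.35, edgeR adjusted p = 0.0521) and with the replicate block (2.46, edgeR adjusted p = 0.0575). With sex and the length slope as terms it was kept (2.17, edgeR adjusted p = 0.00394).

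The group comparisons of Vldlr changed with sex in the model. Fitted by group alone, Vldlr was called higher with the diet in WT (log2 fold change 3.49 with SE 0.768, edgeR adjusted p = 0.0107) and higher with the knockout on chow (4.07, SE 0.779, edgeR adjusted p = 0.00453), and not between KO NASH and WT NASH. The call on chow was lost by limma voom with quality weights (2.86, limma adjusted p = 0.059). With sex as a term the diet difference in WT was 1.26 (SE 0.718, edgeR adjusted p = 0.472), the genotype difference on chow was 2.80 (SE 0.549, edgeR adjusted p = 0.00512) and that on the NASH diet was 2.37 (SE 0.598, edgeR adjusted p = 0.0289). In males alone the difference on chow was 2.91 (edgeR adjusted p = 0.00132). The interaction, -3.39 by group alone (SE 0.994, unadjusted p = 0.0027, edgeR adjusted p = 0.202), was -0.43 with sex in the model (edgeR adjusted p = 0.963). It was called by DESeq2 (-3.35, DESeq2 adjusted p = 0.0443) and without WT NASH replicate 4, the male (-3.70, edgeR adjusted p = 0.0183). WT chow libraries had 8 to 20 counts of Vldlr each, which limits the precision of the folds against that group.

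**Figure D3:**
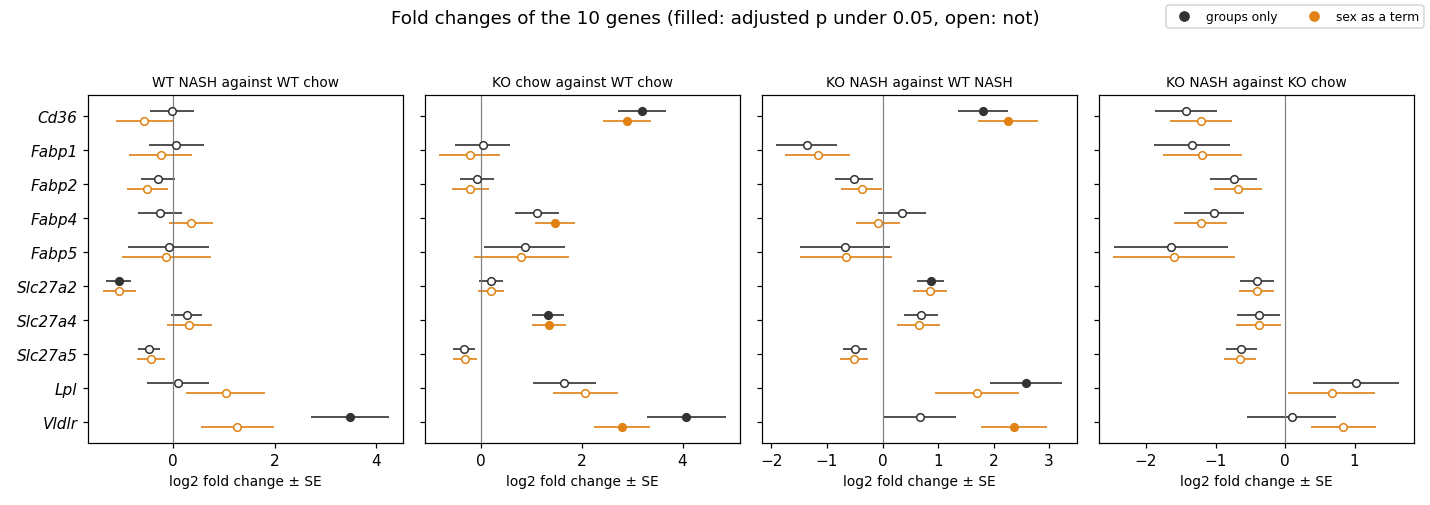
Log2 fold change with its SE for the 10 genes in 4 comparisons (horizontal axes differ in range), by group alone (dark) and with sex as a term (orange), filled where the edgeR adjusted p was under 0.05. Cd36 is filled in both genotype comparisons under either model, Vldlr moves from 3.49 to 1.26 in WT NASH against WT chow, and no gene is filled in KO NASH against KO chow.

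Counted over the 10 genes, 2 were called between WT NASH and WT chow (Vldlr higher, Slc27a2 lower), where 5.93% of all tested genes were called and sex differed along with the diet. KO chow against WT chow gave 3 (Cd36, Slc27a4 and Vldlr, all higher; 5.53% of all genes), and KO NASH against WT NASH 3 (Cd36, Slc27a2 and Lpl, all higher; 9.65% of all genes). The median log2 fold changes of the 10 genes in these 3 comparisons were -0.06, 0.99 and 0.52, beside 0.01, 0.00 and 0.00 for all genes. KO NASH against KO chow gave 0 by edgeR (5 at an unadjusted p under 0.05, 2 by DESeq2, 1 by limma voom; 3.29% of all genes), with a median of -0.69 against -0.02. The interaction gave 0 by edgeR (2 at an unadjusted p under 0.05, 1 by DESeq2, 1 by limma voom; 0.139% of all genes). These comparisons share groups, so they are not independent of each other. The limma voom call was Slc27a4 both in KO NASH against KO chow (-0.67, limma adjusted p = 0.0449) and in the interaction (-1.14, limma adjusted p = 0.027).

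With sex as a term, 0 of the 10 genes were called for the diet in WT by edgeR (1 at an unadjusted p under 0.05; 1.11% of all genes), 4 for genotype on chow (Cd36, Slc27a4, Vldlr and Fabp4; 5.84% of all genes), 2 for genotype on the NASH diet (Cd36 and Vldlr; 4.33% of all genes) and 0 for the diet in KO (4 at an unadjusted p under 0.05; 3.98% of all genes).

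Other carriers and acyl-CoA synthetases were led by Slc27a1. Of 23 listed, 16 were tested. Slc27a1 (FATP1), the transporter of muscle and fat, was at 33.6, 42.7, 26.6, 19.7 and 34 CPM in WT chow and at 213, 132, 177, 145 and 88.8 CPM in KO chow. On the NASH diet it was at 11.9, 12, 9.44, 2.35 and 10.6 CPM in WT and 92.1, 105, 139.6, 102 and 101 CPM in KO. Every KO library exceeded every WT library, and every WT NASH library was below every WT chow library. It rose in KO by 2.27 on chow (SE 0.326, edgeR adjusted p = 0.000571) and by 3.53 on the NASH diet (SE 0.345, edgeR adjusted p = 4.71e-06), and fell with the diet in WT (log2 fold change -1.75 with SE 0.323, edgeR adjusted p = 0.00329). These 3 calls were kept in every alternative run, the fits with sex as a term, in males alone and without each library included.

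Acsl4, which activates arachidonic acid, was higher in KO on chow (70.4 ± 18.8 and 196 ± 71.6 CPM, log2 fold change 1.48, edgeR adjusted p = 0.0243) and on the NASH diet (56.6 ± 26.2 and 132 ± 64.1 CPM, 1.22, edgeR adjusted p = 0.0421). The first call was lost without WT chow replicate 3 or 5 or KO chow replicate 1 or 2 (1.38 to 1.48), and the second in 8 of 20 fits that left out 1 library, with sex as a term (0.86), in males alone (0.51), with the replicate block (1.24) and with only the 2 groups in the model (1.20). Acsm5, a medium-chain synthetase, was lower in KO on chow (-0.90, edgeR adjusted p = 0.0224), a call lost without WT chow replicate 3 or 5 or KO chow replicate 1 or 2 (-0.86 to -0.78) or with only those 2 groups in the model (-0.88). Scarb2, a lysosomal relative of Cd36, was lower with the diet in WT (-0.66, edgeR adjusted p = 0.0395) and lost its call in 8 of 20 fits without 1 library. Adding sex to the model ended the call too (-0.53, edgeR adjusted p = 0.296). So did males alone (-0.39, edgeR adjusted p = 0.678), no filter on low counts (edgeR adjusted p = 0.114) and a model of the 2 groups only (edgeR adjusted p = 0.111). In all, 2 of 16 were lower in WT NASH than in WT chow (5.93% of all genes were called), 2 were higher and 1 lower in KO chow than in WT chow (5.53%). On the NASH diet, 2 were higher in KO than in WT (9.65%), and 0 were called between KO NASH and KO chow by edgeR (5 at an unadjusted p under 0.05; 3.29%). Slc27a6 and Fabp3, the forms of heart, did not pass the filter and reached at most 0.711 and 0.095 CPM.

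Partners of lipoprotein lipase and related receptors, 19 of 20 tested, held 2 calls in WT NASH against WT chow, 0 in KO chow against WT chow, 1 in KO NASH against WT NASH and 1 in KO NASH against KO chow. Of all genes, 5.93%, 5.53%, 9.65% and 3.29% were called in these comparisons. Apoa5, an activator of the lipase made by the liver, was at 1416 to 3699.7 CPM in WT chow and 746 to 1148 CPM in WT NASH, without overlap (log2 fold change -1.60 with SE 0.295, edgeR adjusted p = 0.00319). Apoc2, the cofactor of the lipase, was lower too (10.8 ± 3.43 and 4.97 ± 1.52 CPM, -1.11, edgeR adjusted p = 0.0154; the call was lost without WT chow replicate 3, at -0.97). The Apoc2 call was also lost with sex in the model (-1.10, edgeR adjusted p = 0.135), in males alone (-1.46, edgeR adjusted p = 0.211) and with only those 2 groups in the model (-1.11, edgeR adjusted p = 0.0715). Apoa5 lost its call in males alone (-1.19, edgeR adjusted p = 0.408). In KO chow against WT chow, edgeR fitted by group alone called 0 (6 at an unadjusted p under 0.05). With sex and the length slope as terms it called 5, all lower. That fit called 1993 of all 14440 genes in this comparison, 1059 of them lower. Lipa, the lysosomal acid lipase, was lower in KO NASH than in KO chow (190.2 ± 26.5 and 417 ± 152 CPM, -1.13, edgeR adjusted p = 0.0202; lost without KO NASH replicate 1 or 5, at -1.10 and -1.09, and in males alone, at -0.96).

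Of 16 regulators, 15 were tested. Ahr, the aryl hydrocarbon receptor, a ligand-activated factor known to raise Cd36 in liver when activated, was called in all 4 comparisons fitted by group alone, lower in KO and higher on the NASH diet. On chow it ranged from 34 to 56.7 CPM in WT and from 12.6 to 32.7 CPM in KO, and on the NASH diet from 69.1 to 90.7 CPM in WT and from 37.9 to 61.7 CPM in KO, with no overlap in any of the 4 comparisons. It fell in KO by 1.06 on the log2 scale on chow (SE 0.223, edgeR adjusted p = 0.00847) and by 0.78 on the NASH diet (SE 0.221, edgeR adjusted p = 0.0301), and rose with the diet by 0.89 in WT (SE 0.221, edgeR adjusted p = 0.0217) and by 1.17 in KO (SE 0.223, edgeR adjusted p = 0.0101). The call on the NASH diet was lost without any of 5 libraries (replicates 2 and 5 of WT NASH and 2, 3 and 4 of KO NASH), and that of the diet in WT without WT chow replicate 3 or 5 or WT NASH replicate 2. Once sex was in the model, neither the diet difference in WT (0.80, edgeR adjusted p = 0.191) nor the genotype difference on the NASH diet (-0.71, edgeR adjusted p = 0.117) was called. In males alone these were not called either (0.86 and -0.70, edgeR adjusted p = 0.313 and 0.229), nor was the diet difference in KO (1.39, edgeR adjusted p = 0.0529). The genotype difference on chow was not called with only those 2 groups in the model (-1.06, edgeR adjusted p = 0.0518). Ppara and Pparg, the nuclear receptors best known for driving genes of fatty acid handling, were called in no comparison: Pparg medians were 4.16, 6.60, 8.69 and 9.89 CPM in WT chow, WT NASH, KO chow and KO NASH, and Ppara medians 236, 337, 407 and 447 CPM.

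**Figure D4:**
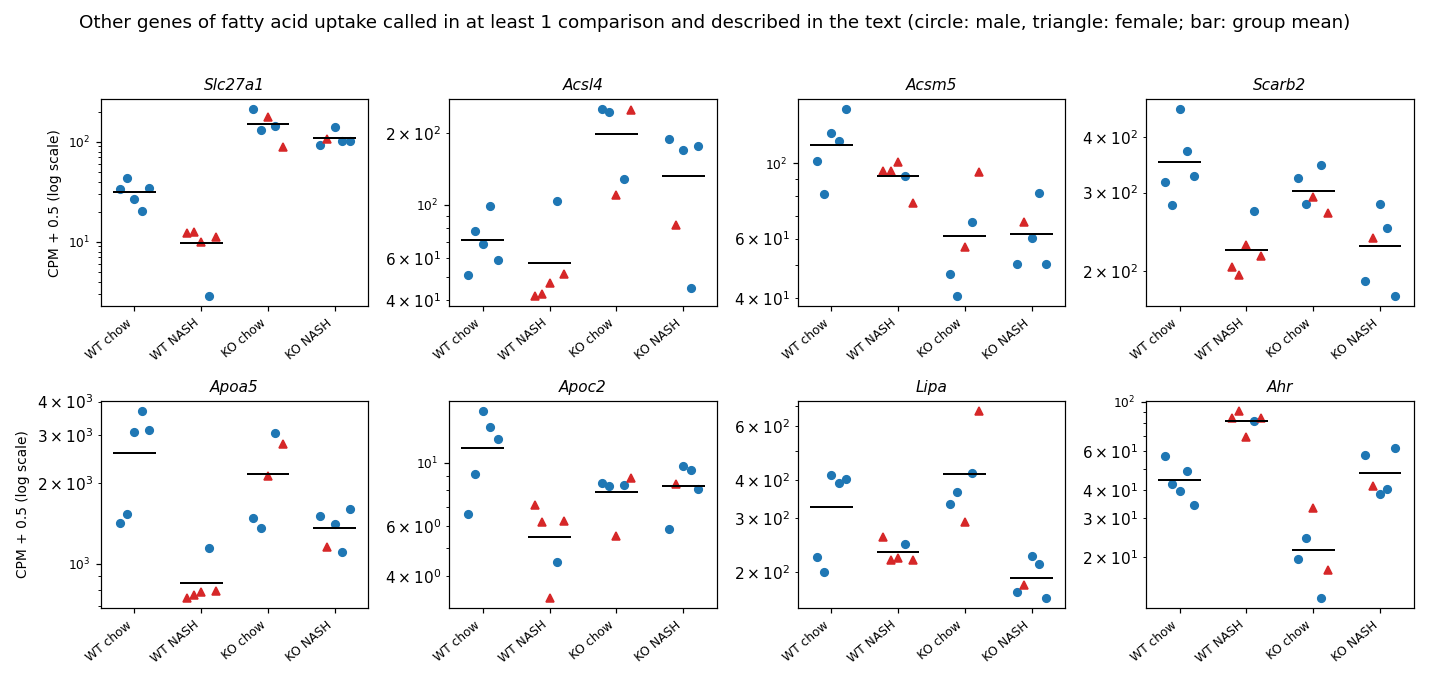
CPM plus 0.5 (log axis, a separate range for each gene) in each of the 20 libraries for 8 other genes of fatty acid uptake, lipoprotein lipolysis and their regulation, each called in at least 1 comparison and described here, with circles for males, triangles for females and a bar at the mean of 5 libraries. Slc27a1 separates KO from WT libraries, and Ahr is lowest in KO chow (12.6 to 32.7 CPM) and highest in WT NASH (69.1 to 90.7 CPM).

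Likeness to Cd36 over the 20 libraries was ranked among 9101 genes that averaged 5 CPM or more, leaving out symbols of Gm and a number or with Rik. The genes most like Cd36 were Det1 (Pearson r of log2 CPM 0.92, Spearman rho 0.92), Apmap (0.90 and 0.90), Ly6d (0.89 and 0.82), Il1rn (0.88 and 0.85) and Car2 (0.88 and 0.83). The libraries share their groups, and after removal of group means the r was 0.76 for Det1, 0.64 for Apmap, 0.78 for Ly6d, 0.45 for Il1rn and 0.42 for Car2. Il1rn, the antagonist of the interleukin-1 receptor, was at 18.4 ± 8.36 CPM (WT) and 112 ± 49.3 CPM (KO) on chow and 11.4 ± 4.93 CPM (WT) and 47.8 ± 16.6 CPM (KO) on the NASH diet. Apmap, a membrane protein first described in adipocytes, was at 41.4 ± 7.75, 117 ± 19.3, 32.5 ± 3.34 and 59.3 ± 12.2 CPM in the same order. Both had the order of Cd36, with KO chow highest and KO NASH next. They were picked by their correlation with Cd36 over these same libraries, so a shared order follows from the choice. Of the other 9 uptake genes, Vldlr had the highest r with Cd36 (0.64), followed by Fabp4 (0.60), Slc27a4 (0.52) and Lpl (0.50), and Slc27a5 and Fabp1 the lowest (-0.14 and 0.03). After removal of group means this order was different, with 0.57 for Fabp2, 0.54 for Slc27a5, 0.51 for Fabp1, 0.41 for Vldlr, 0.39 for Fabp5, 0.32 for Fabp4, -0.09 for Lpl, -0.29 for Slc27a2 and -0.38 for Slc27a4. These are descriptions over libraries that also share depth and length slope.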

How the data were processed

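Per the labels' protocols, total RNA of whole liver was extracted with Trizol and sequenced on standard Illumina libraries. The authors deposited raw counts per gene symbol for 20 libraries, 1 per mouse. HISAT2 2.0.4 and GRCm38 are named in the submitters' processing notes, while for counting program, annotation and strand setting nothing is given in the sources used here. Count columns as deposited call the diet HFD and were matched to the NASH groups, since the others name chow. P-values set each difference against the spread between these libraries, 1 per mouse. That spread includes technical differences such as the length slope.

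The analysis used edgeR 4.0.16 under R 4.3.3: filterByExpr with a minimum count of 10 kept 14440 genes (99.91% of counts), followed by TMM, glmQLFit over all 20 libraries, and Benjamini-Hochberg adjustment. SE is the unshrunk log2 fold change over the square root of F. Sex was read as male at 100 or more counts over Ddx3y, Kdm5d, Eif2s3y and Uty. The length slope was fitted over 9745 genes with GENCODE M21 exonic lengths, matched for 93.52% of tested genes. Likeness used log2 of CPM plus 0.5. Alternatives were RLE scaling, no filter, DESeq2 1.42.0, limma 3.58.1 voom with quality weights, the replicate block, sex and slope terms, males alone, the 2 groups alone, KO NASH replicates 1 and 5 summed or left out, and 20 fits without 1 library. The fit was tested on simulated counts.

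The 10 genes and all lists were chosen with earlier results of these data known. Named genes are the 10, Pck1, at most 3 called genes per list and comparison, the 5 most like Cd36, and markers of other cell types. Slc27a6, Fabp3, Ppara and Pparg were named after their values were seen. Some called genes of the lists are not reported here.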

Additional observations from a re-analysis of the deposited data

Results flagged for a closer look

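In 5 of the 40 gene and group combinations, a library stood apart from the other 4 by more than Dixon's 95% limit (a gap of over 0.71 of the range). WT NASH replicate 4, the male of its group, which also had few long genes, stood apart for Fabp4 at 55.5 CPM (next 24.4), Fabp5 at 66.6 CPM (next 21.9) and Slc27a5 at 1123 CPM (next 887). KO chow replicate 5, a female with few long genes, stood apart for Fabp1 at 12282 CPM (next 4615) and Fabp5 at 154 CPM (next 28.5). This limit marks about 5% of groups by chance, and all 5 cases fall on 2 libraries.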

How the results depend on the processing

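Changes under the alternatives were counted for a chosen part of the gene and comparison pairs, not for all pairs of the 10 genes. Of 1324 such values, 1185 kept direction and side of the threshold, 117 lost a call, 19 gained one and 3 changed sign. Lpl in KO NASH against KO chow (1.02) became -0.0303 with limma voom and -1.42 without KO NASH replicates 1 and 5. The Cd36 interaction (-1.40) became 0.0266 in males alone. The cause was not tested. Pairs outside this count changed too. Fabp5 in KO chow against WT chow went from 0.87 to -0.50 with limma voom. Vldlr in KO NASH against WT NASH gained a call with sex as a term. Of the 10 genes, the 2 called in WT NASH against WT chow became 0 with sex as a term, 1 with sex and slope as terms and 0 in males alone. The 3 in KO chow against WT chow became 5 with sex and slope as terms, where 1993 of all 14440 genes were called, against 798 by group alone. The 3 in KO NASH against WT NASH became 6 with limma voom, 0 without KO NASH replicates 1 and 5, and 1 to 3 without single libraries (1 without KO NASH replicate 5). The 0 in KO NASH against KO chow became 2 with DESeq2 and 1 with limma voom. The 0 in the interaction became 1 with DESeq2, 1 with limma voom, and 0 to 1 without single libraries (1 without WT NASH replicate 4). The 1 for sex became 0 with the replicate block, 2 with sex and slope as terms, and 0 to 2 without single libraries (0 without KO chow replicate 3, 2 without KO chow replicate 5). With sex and slope as terms, 339 of all 14440 genes were called for sex, against 147 with sex alone as a term. Deviations of same-numbered libraries correlated from -0.40 to 0.58, not above 0.1 in every pair, so the numbers were not taken to pair mice; with the replicate block the counts for the 4 group comparisons were 2, 3, 2 and 0, and 13 of 20 libraries correlated best with their own number in at least 1 other group, 0 in all 3. Males alone gave no fold for Vldlr against WT NASH, where the only male had 0 counts, and left 1 library in that group, assumed to vary like the others. Depth limits the Vldlr levels of WT chow, at 8 to 20 counts, and of WT NASH replicate 4, at 0 counts.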
